A study of Mus musculus with 2 samples.

Results

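The 10 genes described here are imprinted regulators of growth: H19, Igf2, Meg3, Dlk1, Peg3, Cdkn1c, Plagl1, Grb10, Mest and Ndn. They were taken by name, and each matched 1 row of the 49492 genes in the count table. Mammary basal cells, a layer of the ductal epithelium that holds the stem cell activity of the gland, were isolated by flow cytometry from wild-type (WT) mice, adult and female, and cultured in a 3D matrix gel. Per the study's methods, the glands came from mice of 8 to 10 weeks and the sort took CD24+CD29hi cells that lacked CD45, CD31 and TER119. The ctrl group had no treatment, and the M2 group was co-cultured with M2-like macrophages, which are bone marrow-derived macrophages polarised with IL-4 and IL-13. The macrophages sat behind the porous membrane of an insert, were changed every 2 days and shared the medium for 11 to 14 days. Each group was 1 library, and whether it pooled several wells or animals is not given in the sources used here. Without replicates, the spread between cultures is unknown for every difference given.

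Imprinted genes are read mainly from a single parental copy, and the copy in use is set by DNA methylation laid down in the egg or the sperm. Many of them lie in clusters under a shared control region, and the set is known for acting on fetal and placental growth, with most members turned down in tissues after birth. H19, Meg3, Cdkn1c and, in most tissues, Grb10 are read from the maternal copy, and Igf2, Dlk1, Peg3, Plagl1, Mest and Ndn from the paternal copy. The reads used here were not split by allele and methylation was not measured, so all values are total transcript levels.

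To ask which of the 10 genes differed between the libraries, the reads of each gene were compared with a two-sided exact binomial test. A gene was called when its p adjusted over all genes tested was under 0.05 and its level, on the log2((reads + 1)/library size) scale, differed by at least 2-fold. All 10 genes had at least 10 reads summed over the libraries and were tested. H19 and Igf2 were called higher in the M2 library, Meg3 and Dlk1 were called lower, and the other 6 were not called. Over all 19233 genes tested, 8.16% were called higher and 6.55% were called lower. Set against that background, 2 calls in each direction among 10 genes is too small a number to call anything particular to the list. The median log2 difference of the 10 genes was -0.07, and that of all genes tested was -0.0032 with quartiles of -0.32 and 0.35. In each direction the called genes were a maternally and a paternally expressed gene that lie next to each other in a cluster. The test compares these libraries, not the conditions, and in bulk RNA fewer cells of a type and less RNA per cell cannot be told apart.

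**Figure D1:**
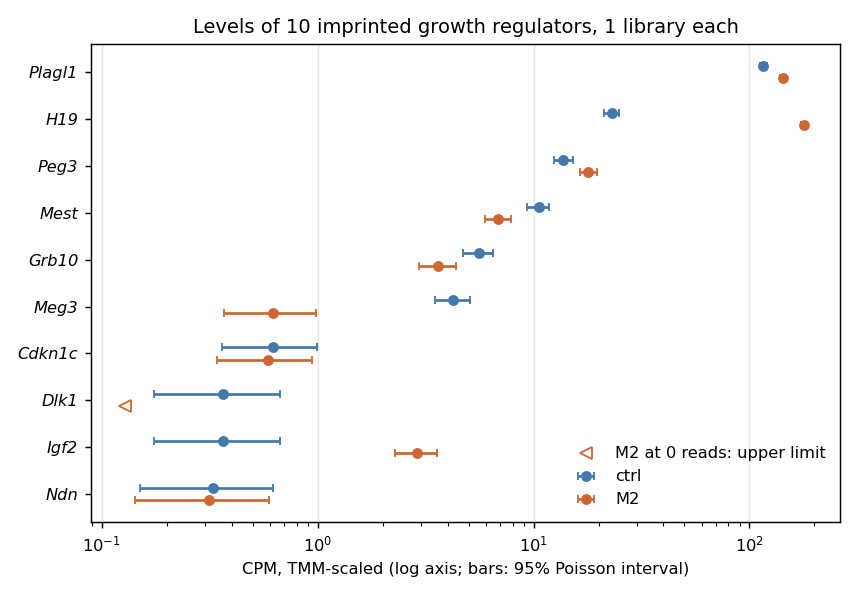
Level of each of the 10 imprinted genes in the ctrl (blue) and M2 (orange) library, in CPM scaled by the trimmed mean of M values, on a log axis; bars are 95% Poisson intervals and the open triangle is the upper limit of that interval, 0.128 CPM, for Dlk1, which had 0 reads in M2. H19 and Igf2 sit higher in M2, Meg3 and Dlk1 sit lower, and Cdkn1c and Ndn lie at nearly the same level in both.

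H19 is a long noncoding RNA, transcribed from chr7:142575529-142578143 on the minus strand of GRCm38, with 2372 exonic bases in 4 merged exons. It had 632 ctrl reads and 5148 M2 reads. Its level in counts per 1000000 reads of the scaled library size (CPM) was 23.0 in ctrl (95% Poisson interval 21.2 to 24.9) and 178.6 in M2 (173.8 to 183.6). The log2 difference was 2.95 (95% interval 2.84 to 3.08), which is 7.75-fold higher in M2. The adjusted p of the exact binomial test was below the smallest number the software writes. H19 alone accounted for most of the rise in the summed reads of the 10 genes, from 4799 to 10235.

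Igf2 encodes insulin-like growth factor 2, a fetal growth factor, and lies 72.6 kb from H19 at chr7:142650766-142666816 on the minus strand. The ctrl library held 10 Igf2 reads and the M2 library 83. These are levels of 0.364 CPM (0.175 to 0.670) and 2.88 CPM (2.29 to 3.57), and the intervals do not overlap. Igf2 was thus 7.28-fold higher in M2, a log2 difference of 2.86 (2.03 to 4.10) with an adjusted p of 3.78e-14 by the exact binomial test. Although both genes of the pair were higher, H19 stayed far above Igf2 in reads. Igf2 reads made up 1.56% of the reads of the pair in ctrl (95% exact binomial interval 0.749 to 2.85) and 1.59% in M2 (1.27 to 1.96), or 63.2 and 62.0 H19 reads for each Igf2 read. The width of the ctrl interval follows from its 10 reads.

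Rows of 3 small RNAs lie wholly inside the H19 exons, and all 3 were called higher. Mir675, the host-strand miRNA gene at chr7:142577064-142577147, had 72 ctrl reads and 530 M2 reads, a log2 difference of 2.79 (2.45 to 3.19). The annotated rows Gm27483 (54 and 726 reads) and Gm27786 (95 and 922 reads) lie on the opposite strand and differed by 3.66 and 3.20. Reads of these rows and of H19 cannot be told apart. Among single-exon rows inside an exon of a gene with at least 1000 reads, 227 of 233 on the host strand and 72 of 78 on the opposite strand had reads. The library was made from mRNA, so reads in the Mir675 row come from longer transcripts and the mature miRNAs were not measured. Their sequences are shown because H19 exonic RNA is the precursor of miR-675, which is known to restrain placental growth. In the RefSeq hairpin (GRCm38.p6) capitals mark the 2 mature arms, and in each arm capitals mark the seed, bases 2 to 8.
Mir675 hairpin: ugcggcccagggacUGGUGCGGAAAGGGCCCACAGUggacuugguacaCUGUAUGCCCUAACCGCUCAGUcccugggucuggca
miR-675-5p: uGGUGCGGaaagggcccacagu
miR-675-3p: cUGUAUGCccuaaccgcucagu
The seeds of the 2 arms differ from each other.

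Meg3 and Dlk1 are the second pair of neighbours, 77.7 kb apart on chromosome 12. Meg3 is a long noncoding RNA (chr12:109541001-109571726, plus strand, 18089 exonic bases) with reported growth-restraining activity in cultured cells. It had 116 ctrl reads and 18 M2 reads, or 4.22 CPM (3.49 to 5.07) and 0.625 CPM (0.370 to 0.987). Meg3 was 6.46-fold lower in M2, a log2 difference of -2.69 (-3.56 to -2.03) with an adjusted p of 4.48e-19 by the exact binomial test. The miRNA row Mir1906-1 inside its exons held 11 reads in ctrl and 1 in M2 and was called lower, but its reads cannot be told apart from those of Meg3.

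Dlk1 encodes a transmembrane protein of the Notch ligand-like family that holds back differentiation of adipocyte precursors, at chr12:109452823-109463336 on the plus strand. Its 10 reads in ctrl stood against 0 in M2, for which a floor of 3 reads, or 0.104 CPM, was set. The upper 95% Poisson limit for 0 reads was 0.128 CPM, above that floor. Against the floor, and with ctrl at its observed 10 reads, Dlk1 was 3.50-fold lower in M2. The 95% interval of its log2 difference, which also covers the counting error of the ctrl reads, reached up to -1.23. The exact binomial test gave an adjusted p of 0.00193. This call rests on 10 reads in a single library and is the least certain of the 4. Of the reads of the Dlk1 and Meg3 pair, Dlk1 took 7.94% in ctrl (3.87 to 14.1) and 0% in M2 (0 to 18.5), and the intervals overlap.

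To show the DNA at the start of the genes that differed, RefSeq promoter windows of 300 bases are given for the called genes that have one. Each window (GRCm38.p6) spans 250 bases before the start and 50 after it. Capitals mark each CpG, the dinucleotide that carries imprint methylation, but whether these windows carry it was not measured. Igf2 has 4 windows and Meg3 has 2, and the window with the most CpGs is shown for each. The Igf2 window at chr7:142658755-142659054 (minus strand) holds 24 CpGs, the Meg3 window at chr12:109540746-109541045 (plus strand) holds 13, and the Dlk1 window at chr12:109452573-109452872 (plus strand) holds 9.
Igf2: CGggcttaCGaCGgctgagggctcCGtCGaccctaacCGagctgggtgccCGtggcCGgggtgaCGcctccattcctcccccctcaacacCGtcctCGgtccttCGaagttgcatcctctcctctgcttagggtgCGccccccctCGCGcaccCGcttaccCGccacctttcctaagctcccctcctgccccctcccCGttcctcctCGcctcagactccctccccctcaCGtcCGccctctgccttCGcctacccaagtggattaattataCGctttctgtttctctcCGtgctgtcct
Meg3: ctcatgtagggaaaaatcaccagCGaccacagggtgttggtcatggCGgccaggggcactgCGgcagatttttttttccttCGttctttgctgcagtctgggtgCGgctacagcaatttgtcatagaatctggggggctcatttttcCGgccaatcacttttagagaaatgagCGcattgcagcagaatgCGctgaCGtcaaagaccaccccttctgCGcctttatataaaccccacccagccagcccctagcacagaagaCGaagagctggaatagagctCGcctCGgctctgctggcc
Dlk1: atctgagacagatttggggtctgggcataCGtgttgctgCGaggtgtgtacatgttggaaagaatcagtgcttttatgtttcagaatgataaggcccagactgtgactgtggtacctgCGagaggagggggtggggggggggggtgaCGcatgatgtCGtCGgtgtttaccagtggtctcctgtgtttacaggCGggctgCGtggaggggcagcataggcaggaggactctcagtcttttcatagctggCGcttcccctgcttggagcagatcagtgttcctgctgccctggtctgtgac
The other Igf2 windows hold 2, 14 and 7 CpGs, and the other Meg3 window holds 1. Across 32851 windows, which were not picked by their CpGs, the median was 7 CpGs with quartiles of 3 and 20. Windows were found for 8 of the 10 genes, 15 in all, and the missing ones are H19 and Cdkn1c. The Plagl1 protein is known to bind the motif GGGGCCCC, which reads the same on both strands. That motif was found in 1 of the 15 windows, the Peg3 window at chr7:6730370-6730669, and in 1.08% of all windows. A match of letters is a description and not a measured site.

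Plagl1, a zinc finger transcription factor also called Zac1 that is known to act on other imprinted genes, had the most reads of the 10 genes in ctrl. It had 3184 ctrl reads and 4140 M2 reads, which are 115.9 CPM (111.9 to 120.0) and 143.7 CPM (139.3 to 148.1). The log2 difference was 0.31 (0.24 to 0.38), with an adjusted p of 5.14e-19 by the exact binomial test. At this depth the reads separated the libraries, but the 1.24-fold difference did not reach the 2-fold threshold. Peg3 is also a zinc finger protein, which acts in growth and maternal care. Its reads were 378 in ctrl and 518 in M2, a log2 difference of 0.38 (0.19 to 0.58) with an adjusted p of 0.000228 by the same test, and it was not called.

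Grb10 encodes an adaptor that binds the insulin and IGF1 receptors and dampens their signal. Its reads were 153 in ctrl and 104 in M2, or 5.57 CPM (4.72 to 6.53) and 3.61 CPM (2.95 to 4.37). Mest, a hydrolase-fold protein known from growing mesoderm and adipose tissue, had 290 ctrl reads and 198 M2 reads. The log2 differences were -0.62 for Grb10 (-1.0 to -0.26) and -0.62 for Mest (-0.89 to -0.35), with adjusted p of 0.00151 and 9.78e-06 by the exact binomial test. Neither reached 2-fold, so neither was called.

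Cdkn1c encodes the cyclin-dependent kinase inhibitor p57, and Ndn encodes necdin, a MAGE family protein of neurons and other resting cells. Both had equal reads in the 2 libraries. Cdkn1c had 17 reads in each and Ndn 9 in each. The log2 difference of both was -0.07, with intervals of -1.13 to 0.99 for Cdkn1c and -1.58 to 1.44 for Ndn. At this depth a 2-fold difference of Ndn in either direction was within the interval, and for Cdkn1c so was a 2-fold decrease.

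**Figure D2:**
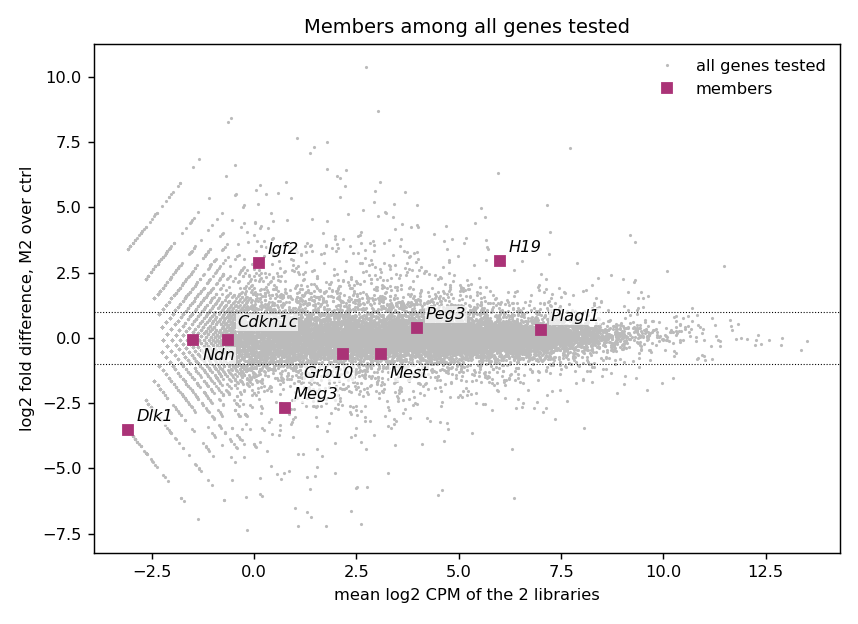
Log2 fold difference, M2 over ctrl, against mean log2 CPM of the 2 libraries for the 19233 genes tested (grey points), with the 10 imprinted genes as squares and the 2-fold thresholds dotted. H19 lies at 2.95 among well-measured genes, Igf2 (2.86), Meg3 (-2.69) and Dlk1 lie among genes with few reads, and the other 6 lie between the thresholds.

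Levels between genes were compared as RPKM, which is CPM divided by the exonic length in kilobases. In ctrl the order was Plagl1 at 14.8 RPKM, H19 at 9.70, Mest at 2.68, Peg3 at 1.03, Grb10 at 0.613, Cdkn1c at 0.304, Meg3 at 0.234, Ndn at 0.0887, Dlk1 at 0.0644 and Igf2 at 0.0636. The 95% intervals of neighbours overlapped only between Cdkn1c and Meg3 and among Ndn, Dlk1 and Igf2. In M2 H19 came first at 75.3 RPKM, followed by Plagl1 at 18.4, Mest at 1.74, Peg3 at 1.35, Igf2 at 0.503, Grb10 at 0.397, Cdkn1c at 0.289, Ndn at 0.0845, Meg3 at 0.0345 and Dlk1 at 0. There the intervals of Igf2, Grb10 and Cdkn1c overlapped one another, as did those of Ndn with Meg3 and of Meg3 with Dlk1. Igf2 thus moved from the last to the fifth place, and Meg3 from the seventh to the ninth.

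**Figure D3:**
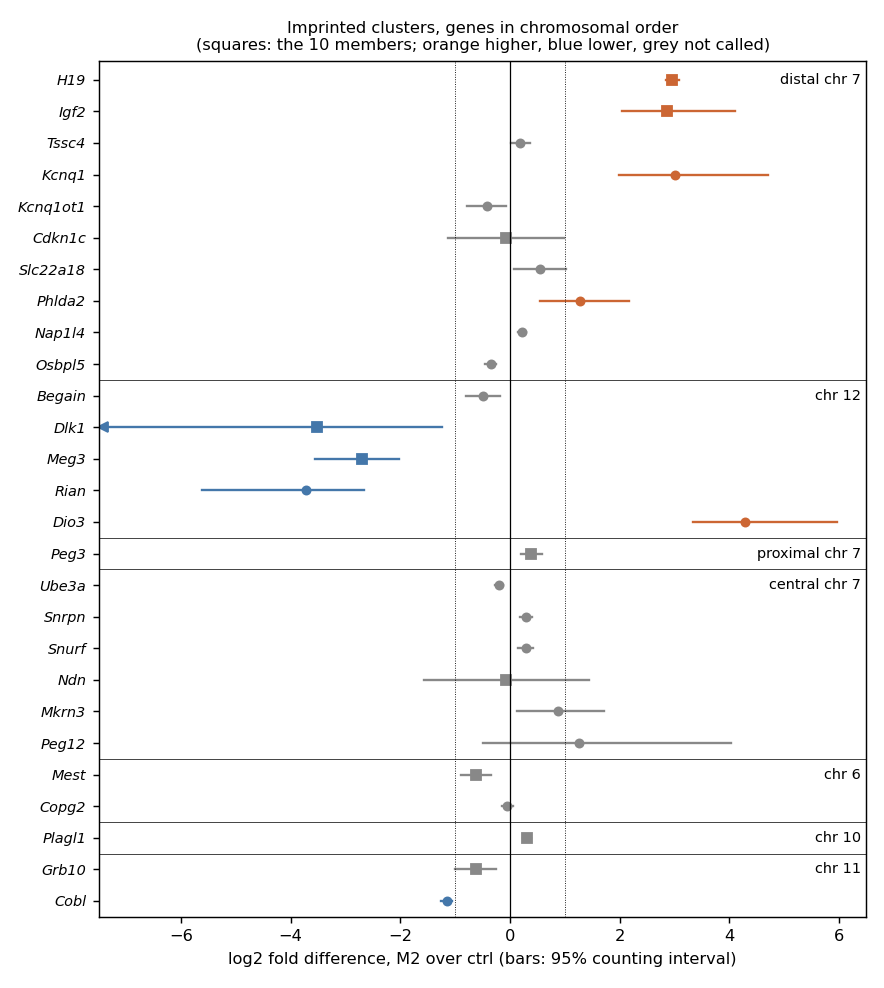
Log2 fold difference, M2 over ctrl, of imprinted genes tested in the 7 chromosomal clusters that hold the 10 genes, in chromosomal order, with 95% counting intervals; squares are the 10 imprinted genes described here, orange is called higher, blue called lower and grey not called. Genes are grouped by position. Among those of distal chromosome 7, H19, Igf2, Kcnq1 and Phlda2 are orange and none is blue. In the chromosome 12 cluster Dlk1, Meg3 and Rian are blue, Dio3 is orange and Begain is grey.

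Next, the neighbours of the 10 genes were read from a list of 50 other imprinted genes. Of these, 34 had enough reads to be tested, 3 were called higher and 4 lower (8.16% and 6.55% over all genes tested), 27 were not called, and the median log2 difference was 0.21. On distal chromosome 7, Kcnq1, a potassium channel subunit, had 6 ctrl reads and 58 M2 reads, a log2 difference of 3.01 (2.0 to 4.71). Phlda2, a maternally expressed restrainer of placental growth, had 19 and 50 reads, a difference of 1.28 (0.54 to 2.17). The noncoding Kcnq1ot1, whose transcription keeps the paternal copy of this domain silent, had 156 and 122 reads (-0.42, not called), and Slc22a18, the gene next to Cdkn1c, had 64 and 98 (0.54, not called). Of the 10 genes listed here for distal chromosome 7, 4 were called higher and 0 lower, against 8.16% and 6.55% of all genes tested. Of the 4, 2 were H19 and Igf2 themselves. The list was set by hand, and Ascl2, between Igf2 and Kcnq1 and untested at 5 and 4 reads, was left out of it. Phlda2 lost its call when a biological coefficient of variation of 0.2 was assumed (adjusted p of 0.198 by the exactTest of edgeR), and Kcnq1 lost its call at 0.4 (0.122). Cdkn1c lies 791.5 kb from Igf2 in the same group and had equal reads. The group was made by position on the chromosome and not by a shared control region. Kcnq1ot1 lies within Kcnq1 on the opposite strand, and the use of strand in counting is not given in the sources used here. As given above, 72 of 78 rows opposite a host exon had reads. Whether the Kcnq1 row holds reads of Kcnq1ot1 was not tested.

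On chromosome 12, Rian, a maternally expressed noncoding RNA 32.2 kb downstream of Meg3, had 74 ctrl reads and 5 M2 reads. Its log2 difference was -3.71 (-5.62 to -2.67). Rian, Meg3 and Dlk1 were therefore called in the same direction. Dio3, at the far end of the cluster 707.3 kb from Meg3, encodes the deiodinase that inactivates thyroid hormone. It had 6 ctrl reads and 142 M2 reads, a log2 difference of 4.28 (3.34 to 5.97), opposite to the other 3. Begain, which lies before Dlk1 on the chromosome, had 200 and 149 reads (-0.49, not called). Rtl1 (3 and 1 reads) and Mirg (4 and 0 reads) had too few reads to be tested. Of the 7 genes listed here for this cluster 5 were tested, with 1 called higher and 3 lower, against 8.16% and 6.55% of all genes. The 3 include Meg3 and Dlk1 themselves, and the list was set by hand.

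The clusters of the other members held 1 call, that of Cobl, which was lower. With the members themselves counted, the genes tested were 1 in the cluster of Peg3, 6 in that of Ndn and 2 in that of Mest. They were 1 in that of Plagl1 and 2 in that of Grb10. Over all genes tested 8.16% were called higher and 6.55% lower, and nothing particular to these clusters is read from 1 call. Around Grb10 on chromosome 11, Cobl, an actin nucleator, had 2611 ctrl reads and 1232 M2 reads, a log2 difference of -1.15 (-1.25 to -1.05), while Ddc had 4 and 1 reads. Copg2, which lies next to Mest on chromosome 6, had 1444 and 1467 reads (-0.05, not called). Beside Ndn, Mkrn3 had 22 and 43 reads (0.87, not called) and Magel2 had 0 in both. Beside Peg3, Usp29 had 2 and 0 reads and Zim1 had 3 and 4. Outside the clusters of the 10 genes, Peg10, a retrotransposon-derived placental gene in a separate cluster of chromosome 6, had 21 ctrl reads and 2 M2 reads, with a 95% interval of -6.60 to -1.43 for its log2 difference. On chromosome 9, Rasgrf1, a guanine nucleotide exchange factor for Ras, had 141 ctrl reads and 1 M2 reads, with an interval of -12.52 to -4.71.

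Next came proteins that act on imprint methylation. DNA methyltransferases and KRAB zinc finger proteins help to lay it down or keep it, TET enzymes oxidise methylated cytosine and so help to remove it, and CTCF reads it at control regions. By the exact binomial test 0 of 12 tested genes were called, out of 15 listed. The shares over all genes tested were 8.16% higher and 6.55% lower, and nothing particular to a list of 12 is read from 0 calls. Of the 12 genes, 7 had an unadjusted p under 0.05 by this test, and all 7 stayed under 0.05 after adjustment. They were not called because none of them reached 2-fold. By the exactTest of edgeR with an assumed variation of 0.2, 0 were called and 1 had an unadjusted p under 0.05, and with 0.4 there was 0 of each. The median log2 difference was -0.05, with values from -0.94 to 0.57. Tet3, of the TET enzymes, was the lowest with 6758 ctrl reads and 3707 M2 reads, and Dnmt1, the maintenance methyltransferase, had 3661 and 3221 (-0.25). These 2 genes were chosen after their values were seen.

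**Figure D4:**
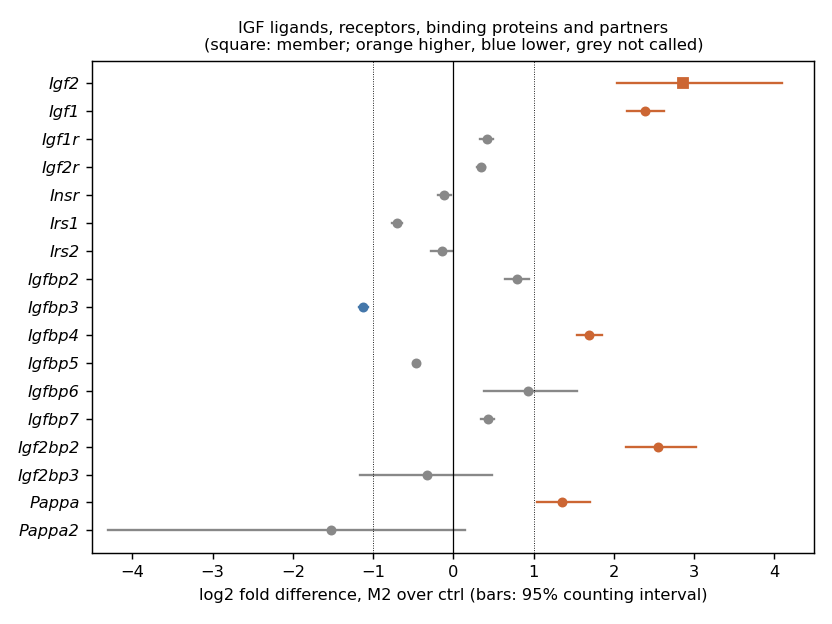
Log2 fold difference, M2 over ctrl, of genes of the insulin-like growth factor (IGF) pathway that were tested, with 95% counting intervals; the square is Igf2, orange is called higher, blue called lower and grey not called. Both ligands, Igf2 at 2.86 and Igf1 at 2.39, lie to the right, and the receptors Igf1r, Igf2r and Insr lie between the 2-fold thresholds.

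Igf2 acts through the IGF1 receptor and a form of the insulin receptor, is cleared by the IGF2 receptor and is held by binding proteins. Of 18 other genes of this pathway 16 were tested, 4 were called higher, 1 was called lower and 11 were not called, with a median log2 difference of 0.38. The shares over all genes tested were 8.16% higher and 6.55% lower, and nothing particular to a list of 16 is read from its 5 calls. Igf1, the other ligand, had 187 ctrl reads and 1030 M2 reads, a difference of 2.39 (2.17 to 2.62). Hence both IGF ligand genes had more reads in the M2 library, and Igf1 had the larger counts. The receptors were not called. Igf1r had 2288 and 3198 reads (0.41), Insr had 2401 and 2330 (-0.11), and Igf2r, itself an imprinted gene, had 5633 and 7494 (0.34).

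Binding proteins moved both ways. Igfbp4 had 424 ctrl reads and 1440 M2 reads, a log2 difference of 1.69 (1.54 to 1.85), and Pappa, the protease that cleaves it and frees IGF, had 107 and 289, a difference of 1.36 (1.04 to 1.70). Igfbp3 fell from 7972 to 3846 reads, a difference of -1.12 (-1.18 to -1.07). The RNA-binding protein Igf2bp2, which binds Igf2 mRNA, had 52 and 325 reads, a difference of 2.55 (2.15 to 3.03). Igfbp5, named here after its values were seen, was the gene with the most reads in ctrl and the second in M2, at 337432 and 256840 reads (-0.46), and was not called.

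Sequence relatives of the members that are not imprinted were used as a further comparison. Of these 9, 0 were called higher and 1 lower, against 8.16% and 6.55% of all genes tested. Nothing particular to the list is read from 1 call. Grb14, a relative of Grb10 and likewise an adaptor that dampens the insulin receptor, had 896 ctrl reads and 393 M2 reads, a log2 difference of -1.26 (-1.43 to -1.09). Grb7 had 593 and 531 reads (-0.23). Of the kinase inhibitors related to Cdkn1c, Cdkn1a had 980 and 1769 reads (0.78) and Cdkn1b had 7706 and 6607 (-0.29), so both were far above the 17 reads of Cdkn1c. Plag1 and Plagl2, relatives of Plagl1, had log2 differences of 0.28 and 0.07, Maged1 and Maged2, of the family of Ndn, had 0.05 and 0.66, and Dlk2 had 11 and 9 reads. None of these 8 was called.

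Calls were repeated with a test that assumes variation between cultures, the exactTest of edgeR with a biological coefficient of variation (BCV) set by hand. With a BCV of 0.2, 5.01% of the genes tested were called higher and 3.59% lower, and H19, Igf2, Meg3 and Dlk1 kept their calls, with adjusted p of 2.9e-09, 3.11e-05, 1.54e-05 and 0.0487. Of these 4 only H19 had at least 1 CPM in both libraries. Phlda2, Cobl and Igfbp3 lost theirs, with adjusted p of 0.198, 0.0637 and 0.074. With a BCV of 0.4, 0.910% were called higher and 0.676% lower, and 0 of the 10 genes were called, although 4 had an unadjusted p under 0.05. The adjusted p were then 0.0592 for H19, 0.131 for Igf2, 0.173 for Meg3 and 0.398 for Dlk1. Among the other imprinted genes Dio3 (0.00432), Rian (0.0281) and Rasgrf1 (9.1e-05) were still called.

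The identity of the cells was checked with marker genes. Their calls stand beside 8.16% called higher and 6.55% called lower over all genes tested. The basal markers summed to 8383 CPM in ctrl and 8804 in M2, led by Krt14 (81991 and 68968 reads) and Krt5 (56383 and 83619), and 1 of 10 was called higher and 1 lower. Luminal markers were also present, at 4202 and 3407 CPM in sum, with 0 of 12 called higher and 6 lower. Fibroblast markers summed to 3821 and 2725 CPM, most of it Postn (72824 and 71795 reads). Of 12 tested, 2 were called higher, Fbln1 (62 and 485 reads) and Dcn (51 and 157). Lower calls numbered 5, among them Col14a1 (13318 and 1603 reads) and Col6a3 (9433 and 523). The sort for CD24+CD29hi cells was made before the culture. By flow cytometry of such cultures, the study reported mostly luminal cells in both groups, with a smaller luminal and a larger basal share under M2 co-culture. The part of luminal cells, or of cells with fibroblast markers, in the values of the 10 genes was not tested. Of the macrophage markers 5 of 14, including Ptprc and Adgre1, were at 0 reads in both libraries, and the sum of 65.0 and 83.1 CPM was mostly Arg1 (1507 and 2090 reads). Only Cd163 (2 and 30 reads) was called higher, and Cd68 had 170 and 165 reads. Endothelial markers summed to 2.22 and 3.23 CPM, with 1 of 4 tested called higher and 2 lower. Adipocyte markers summed to 7.39 and 0.243 CPM, almost all of it Lep (198 and 6 reads, called lower), and the other 3 had 2 reads or fewer in each library.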

How the data were processed

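The authors deposited unnormalized read counts of each gene for 1 ctrl and 1 M2 library of 3D-cultured mouse mammary basal cells. Although the series text names a microarray, these are sequencing counts. Extraction used a column kit according to the labels, whereas the methods name RNAiso Plus, and the library kit was a SMARTER mRNA kit. The submitters' processing notes name the builds GRCm38 and mm10. The aligner, the counter, the annotation and the use of strand are not given in the sources used here. The start and end of all 10 genes match GENCODE M21.

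The labels gave each sample's group. Depth was 26912610 reads for ctrl and 29413844 for M2, and trimmed mean of M values (TMM) factors were 1.02 and 0.98 (edgeR 4.0.16, R 4.3.3). The 19233 genes with at least 10 reads summed entered the exact binomial test (two-sided, SciPy 1.17.1), with Benjamini-Hochberg adjustment over all of them. With 1 library per group no dispersion could be estimated, and the quasi-likelihood test of edgeR could not be fitted. Log2 differences used a pseudocount of 1. Their 95% intervals are Clopper-Pearson limits on the M2 share of a gene's reads, and levels, in CPM, have 95% Poisson intervals. The floor behind a count of 0 was set at 3 reads, equal to 0.109 CPM (ctrl) or 0.104 CPM (M2). Because each group is 1 library, all intervals and floors describe counting error only. Molecular identifiers are not mentioned, so amplified copies of a molecule could not be set apart. The limits treat each read as a separate molecule and may be too narrow. The functions were tested on simulated data.

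The genes and lists were chosen with earlier results of these data known. From the lists, called genes, Igf2 receptors, direct neighbours of the 10 genes, sequence relatives and up to 4 markers with the most reads per cell type are named. Alternatives were the scaling (total reads, upper quartile, DESeq2 1.42.0 size factors), the pseudocount, the filter, a 4-fold threshold and exactTest with an assumed BCV of 0.2 or 0.4.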

Additional observations from a re-analysis of the deposited data

How the results depend on the processing

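Of the 10 alternatives, only those of the scaling and the pseudocount can alter a log2 difference, and under these no member changed direction. The others leave the log2 difference as it was and cannot bear on direction. H19, Igf2, Meg3 and Dlk1 were no longer called with an assumed biological coefficient of variation (BCV) of 0.4. The log2 difference of Dlk1, which had 0 reads in M2, was -4.46 with a pseudocount of 0.5 and -1.65 with 5. Scaling by total reads shifted the median of all genes to -0.06. With no filter (27074 genes tested) 1 gene of the imprint methylation list was called lower. With at least 1 CPM in both libraries (14590 genes and 5 members tested), 797 genes were called higher and 583 lower, 1 member (H19) higher and 0 lower, and 0 other imprinted genes higher and 1 lower. At a 4-fold threshold there were 616 genes higher and 494 lower, 2 IGF pathway genes higher and 0 lower, and 0 relatives lower. With a BCV of 0.2 there were 964 higher and 691 lower, and 0 IGF pathway genes lower. With a BCV of 0.4 there were 175 higher and 130 lower, 0 members higher and 0 lower, 0 IGF pathway genes higher and 0 lower, 1 other imprinted gene higher and 2 lower, and 0 relatives lower. Of the other counts, 96 stayed within 1.5 times.

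No paired analysis was possible because ctrl and M2 are single libraries. For the same reason leaving out a replicate and the Wald test of DESeq2 were not run. Depth limits Igf2, Dlk1, Cdkn1c and Ndn, which had 17 reads or fewer in ctrl.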
